A study of Mus musculus with 2 samples.

Results

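Polycomb repressive complex 1 (PRC1) is best known for holding the genes of foreign lineages silent, so that a fibroblast does not switch on the transcription factors of a neuron, a gut cell or a heart muscle cell. The members described here are 39 such lineage factors, listed by name as neural, endodermal and other developmental regulators. They were found as probe sets of the deposited array table whose only platform gene symbol is 1 of the 39 names. This gave 61 probe sets for 38 members, among 45037 probe sets for 18193 genes; Pax2 matched none and has no value here. Where a gene had several probe sets, the brightest by mean log2 signal stood for it, called its main probe set; for members above the floor the others are given beside it.

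The study compared mouse embryonic fibroblasts of genotype wild type with fibroblasts of genotype Phc2 L307R/L307R, written Phc2 L307R below. Phc2 is a subunit of canonical PRC1, and L307R lies in its SAM domain, through which Phc2 molecules polymerise. The labels give strain C57BL/6, embryonic day 12.5 and passage 1 for both cultures, no treatment for either, and do not say how many embryos went into each. There was 1 array per genotype, so no difference has a replicate error, no test between the genotypes could be made and no p-value is given. Fewer cells expressing a gene and less RNA per cell cannot be told apart in such bulk RNA.

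Polycomb complexes act on developmental regulators with CpG-rich promoters, where PRC2 methylates histone H3 and PRC1 ubiquitinates histone H2A and compacts chromatin. In fibroblasts most neural and endodermal regulators are known to carry these marks, while factors of the cell's own lineage escape them. The arrays measured RNA only, so whether a member carried Polycomb marks in these cultures was not measured.

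Most of the lineage factors lay below the middle of both arrays. The median signal of an array over all probe sets other than controls, 94.8 for wild type and 94.3 for Phc2 L307R, served as the level a member had to pass, since no detection calls were used. In wild type 6 of the 38 members lay above it, 15.8%, against 60.4% of all genes. In Phc2 L307R 8 of 38 did, 21.1%, against 61.2% of all genes. The members above it on both arrays were Emx1, Emx2, En1, Isl1 and Sim1, those above it in Phc2 L307R alone were Vax2, Gsc and Hand1, and Nkx2-5 was above it in wild type alone. On at least 1 array 9 of 38 passed 94.8, the higher of both medians, 23.7% against 62.7% of all genes. The other 29 members lay below it on both.

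**Figure D1:**
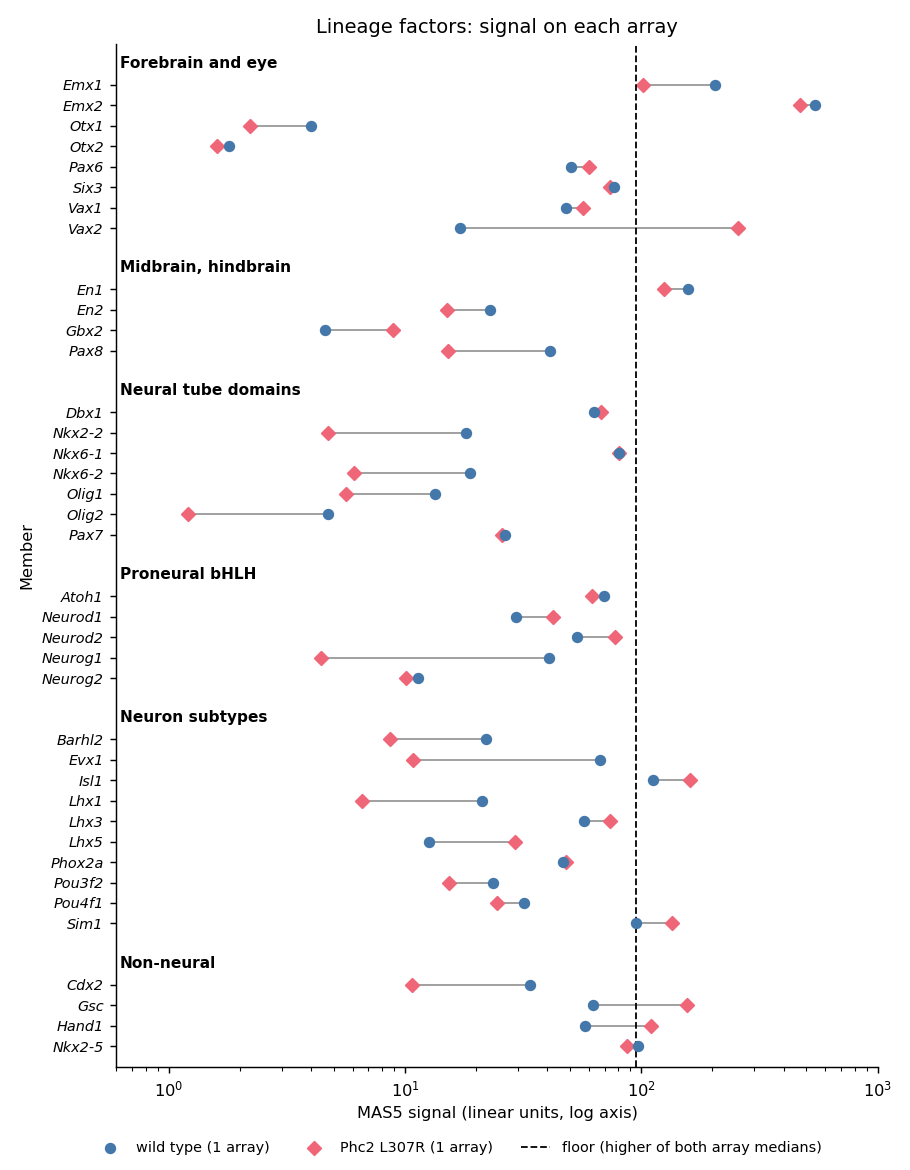
Signal of each of the 38 members on the wild-type array (circles) and the Phc2 L307R array (diamonds), on a log axis in linear MAS5 units, grouped by role. The dashed line is the floor of 94.8; 29 members have both symbols to its left, and Vax2, Gsc and Hand1 cross it from left to right.

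The label given to these genes is that of factors silent in fibroblasts. In wild type 32 of 38 members lay below the level and 6 above it. A signal below the level does not by itself show that a gene is silent. Values just inside and just outside the level show how narrow it was. In wild type Sim1 at 95.0 and Nkx2-5 at 96.5 lay just above it, and the nearest member below it was Nkx6-1 at 80.2. In Phc2 L307R the nearest above it was Emx1 at 102.1 and the nearest below it Nkx2-5 at 87.0. With the level moved to the 60th percentile of each array, 2 members passed in each genotype. At the 40th percentile 13 passed in wild type and 17 in Phc2 L307R, so the count of members below the level depends on where it is set.

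Fibroblast genes had signal on both arrays. All 15 fibroblast markers, among them Col1a1, Dcn and Pdgfra, and 21 of 22 transcription factors of fibroblasts and mesenchyme, such as Prrx1 and Twist1, lay above the median in each genotype. A further list of 64 lineage factors of the same kinds as the members (56 with a probe set) had 14 genes above the wild-type median, 25.0%, and 18 above that of Phc2 L307R, 32.1%. None of the 17 that passed the floor on at least 1 array differed 2-fold. Log2 ratios of the fibroblast markers were above 0 in 12 of 15, at a median of 0.42, and 2-fold higher for Fbln1 at 1.07 and Lum at 1.03. Phc2 itself gave log2 ratios of 0.36 and -0.02 at its probe sets.

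**Figure D2:**
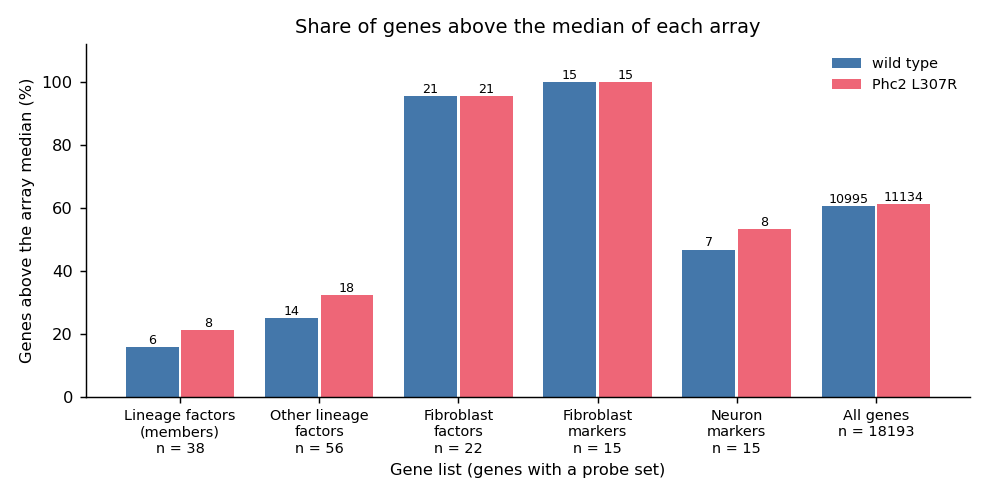
Percentage of genes above the median of the wild-type and of the Phc2 L307R array, for the 38 members, 4 comparison lists and all 18193 genes; the number above each bar is the count of genes. The members reach 15.8% and 21.1%, all genes 60.4% and 61.2%, and the fibroblast markers 100%.

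The promoters of the members were rich in CpG, the dinucleotide that marks the promoters on which Polycomb acts. RefSeq promoter windows of 300 bases (250 before to 50 after the start, build GRCm38.p6) were held for 33 of the 39 members. No window was held for Vax2, Otx1, Lhx5, Hand1, En2 and Olig1. A promoter was called CpG-rich where observed over expected CpG was above 0.6 and the GC share above 50%, with the median taken over the windows of a gene. By this measure 24 of the 33 members were CpG-rich, 72.7%, as were 23 of 45 genes of the further list of lineage factors, 51.1%, and 33.3% of all 27025 genes with a window. Of the members below the floor on both arrays 18 of 25 were, 72.0%, and of those above it 5 of 7, 71.4%. Over all genes the share followed expression, with 69.8% of 9264 genes above the floor and 22.8% of 5188 genes below it. The members below the floor thus had promoters of the kind most genes with signal have, and this is a description with no test.

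Stretches of 4 promoters, the 250 bases before the start on the gene's strand, are shown with every CpG in capitals to set a member that passed the floor in Phc2 L307R alone (Gsc) and one that was lower there (Emx1) beside the members below the floor with the highest and the lowest CpG ratio (Pou4f1 and Pax8).
Gsc (chr12:104473237-104473486, minus strand): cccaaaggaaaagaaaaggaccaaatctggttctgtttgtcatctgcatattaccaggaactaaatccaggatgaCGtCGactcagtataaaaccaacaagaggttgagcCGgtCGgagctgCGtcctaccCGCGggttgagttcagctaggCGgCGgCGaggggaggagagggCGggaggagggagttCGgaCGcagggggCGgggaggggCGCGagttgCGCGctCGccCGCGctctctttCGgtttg
Emx1 (chr6:85187681-85187930, plus strand): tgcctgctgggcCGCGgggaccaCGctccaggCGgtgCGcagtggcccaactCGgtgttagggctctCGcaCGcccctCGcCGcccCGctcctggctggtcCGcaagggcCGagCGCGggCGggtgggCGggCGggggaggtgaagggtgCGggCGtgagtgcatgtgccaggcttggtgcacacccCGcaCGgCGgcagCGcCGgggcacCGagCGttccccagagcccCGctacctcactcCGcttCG
Pou4f1 (chr14:104468000-104468249, minus strand): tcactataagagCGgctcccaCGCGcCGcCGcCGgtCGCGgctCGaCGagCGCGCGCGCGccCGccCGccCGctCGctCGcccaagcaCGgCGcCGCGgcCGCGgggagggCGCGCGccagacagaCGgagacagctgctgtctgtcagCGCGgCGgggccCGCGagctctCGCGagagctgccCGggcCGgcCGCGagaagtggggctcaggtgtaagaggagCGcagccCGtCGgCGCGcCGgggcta
Pax8 (chr2:24475600-24475849, minus strand): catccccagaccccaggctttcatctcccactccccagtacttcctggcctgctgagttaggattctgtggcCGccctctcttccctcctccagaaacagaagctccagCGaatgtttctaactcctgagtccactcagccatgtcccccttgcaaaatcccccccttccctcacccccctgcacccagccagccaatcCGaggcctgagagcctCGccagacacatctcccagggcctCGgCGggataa

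Gsc held 22 CpG in these bases, Emx1 30 and Pou4f1 47, against 6 in Pax8. The observed over expected ratios of the stretches were 1.06, 0.84, 1.24 and 0.31. Gsc, above the floor in Phc2 L307R, and Pou4f1, below it on both arrays, both held dense CpG. The motif TATAAA, searched on both strands of the 300 bases, was found in 6 of 40 member windows, 15.0%, and in 13.6% of all 32851 windows of the table; Gsc holds it in the stretch above.

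**Figure D3:**
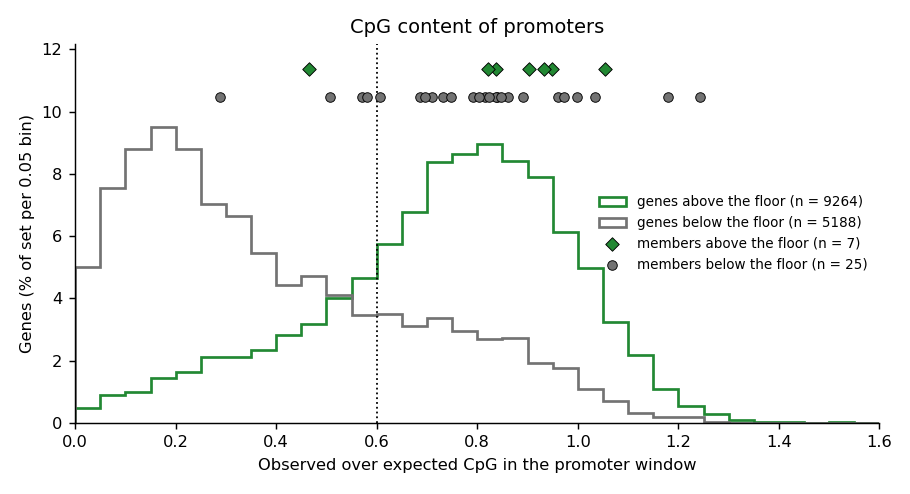
Observed over expected CpG of promoter windows, as the percentage of genes per bin of 0.05, for 9264 genes above the floor and 5188 below it, with each member as a symbol above the curves. The dotted line is the limit of 0.6; most members below the floor lie to its right, in the range of genes with signal.

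For ratios between the genotypes, a signal below the floor of 94.8, the higher of both medians, was raised to it, and the log2 ratio is then a bound, written "at least". Ratios are Phc2 L307R over wild type, and values above 0 are higher in Phc2 L307R. Of the 9 members that passed the floor on at least 1 array, 5 had a log2 ratio above 0 and 4 below, with a median of 0.21, against 59.1% above 0 and a median of 0.06 over 11408 genes. Vax2, Gsc and Hand1 passed through the Phc2 L307R array alone and had to be higher, and Nkx2-5 through wild type alone and had to be lower, so these counts support nothing. At least 2-fold higher was 1 member, Vax2, against 0.579% of genes above the floor, and at least 2-fold lower was 1, Emx1, against 0.535%.

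Forebrain and eye factors held both of these differences. Vax2, a homeobox factor of the ventral retina, read 17.1 on the wild-type array and 256.4 on that of Phc2 L307R. That is at least 2.70-fold higher, a log2 ratio of at least 1.44, and it rests on the only probe set of the gene. Its paralog Vax1 lay at 48.2 and 56.9 at the brighter of its 2 probe sets, below the floor on both arrays.

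Emx1, a homeobox factor of the cortical primordium, read 205.0 in wild type against 102.1 in Phc2 L307R, 2.01-fold lower at a log2 ratio of -1.01. Its further probe set read 3.4 and 3.1, so the value rests on 1 probe set, and in Phc2 L307R that lay close to the floor. With the floor at the 60th percentile, a signal of 176.2, Vax2 was at least 0.54 and Emx1 -0.22 or lower, so neither passed 2-fold; with the floor's value as a pseudocount Emx1 was at -0.61. Emx2, a relative of Emx1 in the dorsal telencephalon that also serves the urogenital system, had 542.3 and 468.6, a log2 ratio of -0.21, and it was far above the floor on both arrays. Six3 and Pax6, regulators of eye and forebrain, read 76.5 and 73.4 and 50.3 and 60.3 at their main probe sets, all below the floor. None of the 5 probe sets of Pax6 or the 3 of Six3 passed it. Otx1 and Otx2, head factors of the anterior brain, read 4.0 and 2.2, and 1.8 and 1.6.

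Among factors of the midbrain and hindbrain, only En1 passed the floor. En1, which patterns the midbrain boundary and is also known in dermal fibroblasts and limb ectoderm, read 158.0 and 125.0, a log2 ratio of -0.34. Its paralog En2 read 22.8 and 15.0. Gbx2, of the anterior hindbrain, read 4.6 and 8.9, and Pax8, of thyroid and kidney as well as the midbrain boundary, 41.2 and 15.2.

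All 7 factors that divide the neural tube into progenitor domains lay below the floor on both arrays. Nkx6-1 came closest with 80.2 and 80.4, followed by Dbx1 with 62.8 and 67.6. Nkx2-2 read 18.1 and 4.7, Nkx6-2 18.9 and 6.1, Olig1 13.4 and 5.6, and Olig2, needed for motor neurons and oligodendrocytes, 4.7 and 1.2. Pax7, a factor of the dorsal neural tube and of muscle stem cells, read 26.5 and 25.8. The 5 proneural basic helix-loop-helix factors, which drive progenitors into neurons, were likewise below it. Neurod2 read 53.3 and 77.6, Atoh1 69.4 and 61.9, Neurod1 29.6 and 42.1, Neurog1 40.5 and 4.4, and Neurog2 11.3 and 10.1.

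Of 10 factors of neuron subtypes, Isl1 and Sim1 passed the floor, each with a ratio above 0 and under 2-fold. Isl1, a LIM homeobox factor of motor neurons that also marks cardiac and hindlimb progenitors, had 112.2 and 161.4, a log2 ratio of 0.52. Its second probe set had 108.3 and 113.8, a log2 ratio of 0.07, so the probe sets of Isl1 differed in size. Sim1, a factor of the hypothalamus, had 95.0 and 135.0, a log2 ratio of 0.51, with its further probe set at 39.3 and 30.9. The other 8 factors lay below the floor on both arrays, between 6.6 and 73.4 at their main probe sets: Lhx1, Lhx3, Lhx5, Phox2a, Pou3f2, Pou4f1, Barhl2 and Evx1. Evx1, which lies next to Hoxa13 at the end of the Hox A cluster, read 66.7 and 10.8.

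Neuron markers moved in both directions beside these values. Of 15 such markers 7 passed the wild-type median and 8 that of Phc2 L307R, and their summed signals were 4494 and 4854. Over the 8 above the floor, 3 had a ratio above 0 and 5 below, with a median of -0.07. The brightest lay far above the floor on both arrays: Gap43 at 1602.6 and 1478.2, Map2 at 891.1 and 359.4 and Stmn2 at 852.9 and 1721.4. The synaptic genes Snap25 and Syt1 lay below the floor on both arrays at 14.5 and 16.1 and at 88.2 and 82.4. Map2, a microtubule protein of dendrites, was at -1.31 and Stmn2 at 1.01, while Dcx, of migrating neurons, was at least 0.82. Their part in the values of Isl1 and Sim1 was not tested.

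Of the 4 factors of other germ layers, 3 passed the floor. Gsc, goosecoid, a homeobox factor of the embryonic organizer and of head mesenchyme, read 62.7 on the wild-type array against 155.6 on that of Phc2 L307R, at least 1.64-fold higher at a log2 ratio of at least 0.71. Hand1, a factor of heart, lateral mesoderm and placenta, had 57.7 and 109.4, a log2 ratio of at least 0.21, with its further probe set at 26.5 and 22.6. Nkx2-5, the cardiac homeobox factor, had 96.5 and 87.0, a log2 ratio of -0.03 or lower and so next to the floor on both arrays. Cdx2, a factor of gut and trophoblast, read 33.9 and 10.7. Of 10 heart muscle markers 3 lay above the median in each genotype, with none 2-fold apart.

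**Figure D4:**
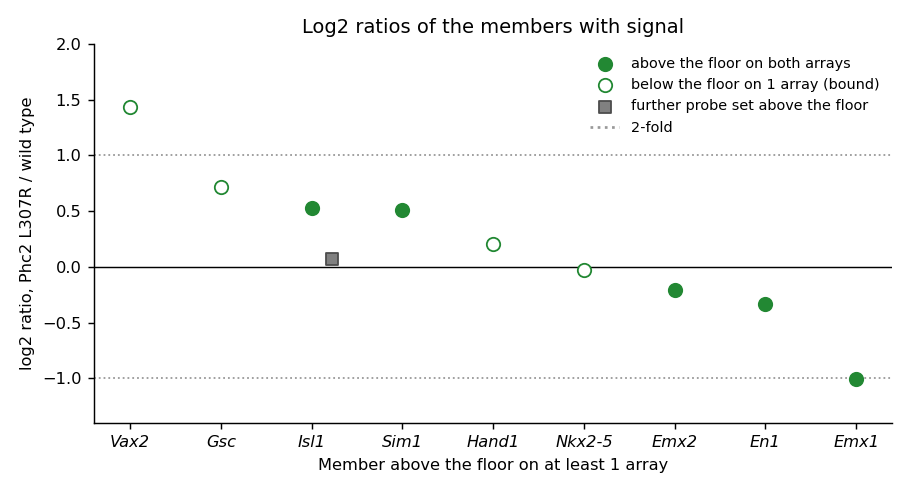
Log2 ratio of Phc2 L307R over wild type for the 9 members above the floor on at least 1 array, in order of the ratio; open circles are bounds, squares are further probe sets above the floor, and dotted lines mark 2-fold. Vax2 at 1.44 and Emx1 at -1.01 lie beyond these lines, and only Isl1 has a further probe set to compare.

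Beside these ratios stands only a technical error. Where a gene had several probe sets above the floor, which held for 5460 genes, their log2 ratios varied about the mean of that gene with a pooled SD of 0.32. It covers genes of all brightness above the floor and holds no difference between cultures. At their main probe sets, the ratios of Vax2, Emx1, Gsc, Isl1, Sim1 and En1 were larger than this SD. Those of Isl1, Sim1 and En1 were less than 2 times the SD. The ratio of Emx2 was smaller than the SD, as was the 0.07 at the second probe set of Isl1. Hand1 and Nkx2-5 have only bounds, which do not settle their size; without a floor Hand1 was at 0.92 and Nkx2-5 at -0.15. Of the 9 members with signal, all but Emx2 had their brighter signal within 3 times the floor. Over the 2713 genes in that band, a limit chosen after the values were seen, 0.921% were at least 2-fold higher and 0.7% at least 2-fold lower. Of the 8 members in it, 1 was higher and 1 lower. The higher one, Vax2, passed the floor through the Phc2 L307R array alone and had to be higher, so these counts support nothing.

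Passage across the median can be read in the same way. Of 32 members below it in wild type, 3 lay above it in Phc2 L307R, 9.38%, against 5.88% of the 7198 genes below it in wild type. Of 6 members above it in wild type, 1, Nkx2-5, lay below it in Phc2 L307R, 16.7%, against 2.58% of the 10995 genes above it in wild type. The further list of 56 lineage factors, with 14 above the median in wild type, had 4 that crossed it upward and 0 downward. With counts this small, 1 member moves the share by several percentage points. The genes behind these shares were not matched to the members for signal. In wild type Nkx2-5 at 96.5 and Sim1 at 95.0 lay next to the median, so a small shift suffices to cross it.

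The 29 members below the floor on both arrays are themselves a result of the comparison. Their 48 probe sets read at most 80.4 in either genotype, and of the 13 members with several probe sets none had one above the floor. Their order below the floor is not read as a level, since raw signals there varied widely: 36% of the 6785 genes below it on both arrays had raw signals at least 2-fold apart, and 11 of the 29 members did, 37.9%. Raw signals were higher in Phc2 L307R in 10 of the 29, 34.5%, against 49.6% of such genes. Of those 11, 10 were lower in Phc2 L307R, 34.5% of the 29 against 18.8% of genes below the floor, and 1 was higher, Lhx5, 3.45% against 17.2%. The further list of lineage factors was even, with 7 lower and 7 higher by 2-fold among 39 below the floor. Nor do the probe sets of a member always go the same way: Pax8, 1 of the 10, read 41.2 and 15.2 at its main probe set and 6.4 and 20.3 at the other. The raw log2 ratios ran from -3.20 for Neurog1 (40.5 to 4.4) to 1.21 for Lhx5 (12.6 to 29.2), with a median of -0.17 against 0.00 over all such genes. No replicate stands behind these raw values.

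Of 8 paralog pairs among the members, 5 (Otx1 and Otx2, Olig1 and Olig2, Nkx6-1 and Nkx6-2, Neurog1 and Neurog2, Neurod1 and Neurod2) had both genes below the floor, 2 had 1 above it (Vax2 without Vax1, En1 without En2), and only Emx1 and Emx2 had both above it.

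Vax2 and Emx1 lie near each other on chromosome 6, with 9 protein-coding genes with a probe set between them in the RefSeq order, and they differed in opposite directions. Of the 19 other genes in the stretch from 5 genes before Vax2 to 5 after Emx1, 15 passed the floor, 12 with a ratio above 0 and 3 below, from -0.20 for Zfp638 to 0.48 for Dysf. None differed 2-fold. Cd207 and Atp6v1b1, on either side of Vax2, lay below the floor on both arrays. The stretch was chosen after the values were seen.

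**Figure D5:**
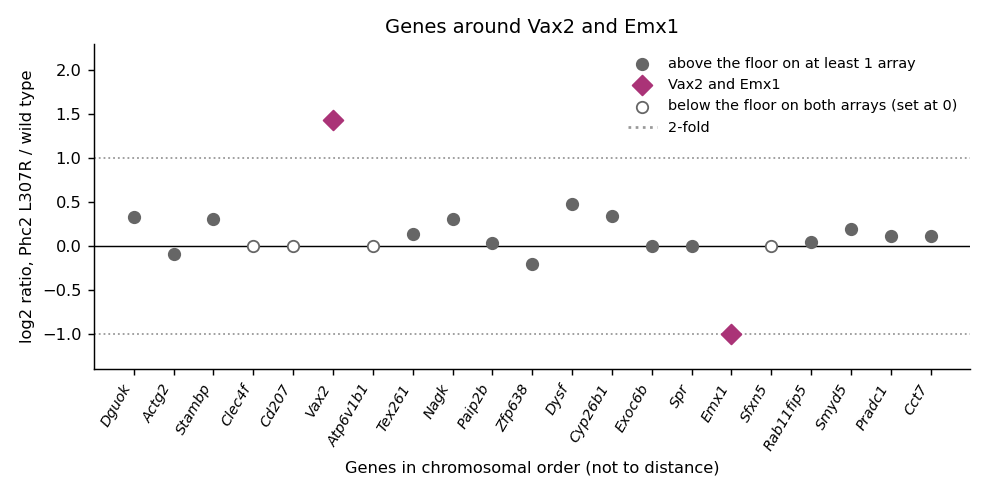
Log2 ratio of Phc2 L307R over wild type for 21 genes in chromosomal order around Vax2 and Emx1, with 2-fold marked by dotted lines; open circles are genes below the floor on both arrays, set at 0. The 15 other genes with signal lie between -0.20 and 0.48, while Vax2 is at 1.44 and Emx1 at -1.01.

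The nearest genes of all members with signal were examined in the same way. Over the 5 nearest genes on each side of all 9 members, 66 passed the floor and none differed 2-fold. Of the 11408 genes above the floor 1.11% did, so none among 66 is near that share. The ratios ran from -0.79 for Nnt beside Isl1 to 0.56 for Crebrf beside Nkx2-5. Dicer1, next to Gsc, was at -0.13, and Serpina3n on its other side lay below the floor with raw signals of 10.2 and 88.2. Of the members with a probe set, Pax7 and Pou3f2 lie on the chromosome of Phc2 itself, with 185 and 575 such genes between them and Phc2, and both lay below the floor on both arrays.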

How the data were processed

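The authors deposited linear intensity values of 45101 probe sets, measured on 2 arrays of total RNA. Affymetrix Expression Console and MAS5 are named, without versions, in the submitters' processing notes; the genome build and the scaling step are not given in the sources used here. Both arrays had a mean of 500.0 after trimming the top and bottom 2%, and values were used at that scale. Signals were taken to log2 after leaving out 64 control probe sets. Of the rest, 34945 carried 1 symbol, 932 several and 9160 none; 34741 matched a RefSeq table of GRCm38.p6, used for names and gene order alone. Gene lists, roles and the naming rule (all members, by role) were written from general knowledge, and members and lists were chosen with earlier results of these data known. A list of cell type markers is not reported here. No test was possible with 1 array per genotype, and the number of arrays limits the precision. The alternatives were quantile normalization, loess (span 0.4, 3 iterations), centring, other floors (40th, 60th and 75th percentiles, none, or a pseudocount), other uses of probe sets and thresholds of 1.5-fold and 3-fold. Calculations ran in Python 3.11.15 with pandas 2.3.3 and statsmodels 0.14.6 and were tested on simulated data. Differences were planted there only in genes well above the floor in wild type. Genes near or below it, where most members with signal lay in wild type, were not covered.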

Additional observations from a re-analysis of the deposited data

How the results depend on the processing

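The counts of members depend mainly on where the floor is set. At the 40th, 60th and 75th percentiles, 13, 2 and 1 members passed on the wild-type array, 17, 2 and 0 on that of Phc2 L307R, and 17, 3 and 1 on either. With the mean over probe sets, and with every probe set required to pass, 5 passed in Phc2 L307R; the other counts stayed within 1.5 times. At least 2-fold higher were 2 members with the floor at the 40th percentile, without a floor or at a threshold of 1.5-fold, and 0 with the floor at the 60th percentile or at 3-fold. At least 2-fold lower were 0 with the pseudocount, at 3-fold or with the 60th-percentile floor. The median log2 ratio turned to -0.21 with the floor at the 60th percentile, where only Vax2, Emx1 and Emx2 remained. Vax2 ranged from 0.54 to 3.91 and Emx1 from -1.07 to -0.22 over the settings. No ratio of a 2-fold member changed sign, but a floor or pseudocount cannot reverse a sign, so those settings could not show this. Quantile normalization, loess and centring changed neither count of 2-fold members. No paired analysis was possible because there was 1 array per genotype, which also left no replicate to leave out.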

Other observations

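Markers of the neural crest, a source of several cell types in the embryo, numbered 8, and 6 passed the floor. Of these, 4 lay above both medians, and Tfap2a and Tfap2b passed through the Phc2 L307R array alone and so had to be higher. Ednrb, the endothelin receptor of melanoblasts and enteric neurons, read 140.4 on the wild-type array and 221.5 on that of Phc2 L307R, a log2 ratio of 0.66. Ngfr was at 0.47, Mitf, a factor of melanocytes, at 0.27 and Sox10, a defining factor of the lineage, at 0.26, none of them 2-fold, where 59.1% of all genes above the floor had a ratio above 0. Foxd3 and Dct lay below the floor on both arrays. Other marker lists went either way, and some leaned in the same direction. Fibroblast markers had 12 ratios above 0 and 3 below, at a median of 0.42 against 0.37 for the neural crest. Heart muscle markers had 2 above and 1 below. Over genes above the floor, neural progenitor markers had 3 ratios above 0 and 4 below, and kidney epithelium markers 0 and 2. Glia and Schwann cell markers had 4 above 0 and 1 below, and endoderm and epithelium markers 3 and 1. Of the marker lists given here, only that of the neural crest had every such ratio above 0. Those of Tfap2a and Tfap2b were bound to be, and Sox10 is also among the glia and Schwann cell markers, so this contrast supports nothing.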
